A study of Mus musculus with 10 samples.

Results

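The genes described here are 36 genes of mitosis: the kinases and cyclins that start it, the spindle and its motors, the kinetochore and its checkpoint, and the proteins of anaphase and cytokinesis. They were picked by name and function, with earlier results of these data known, and their Ensembl IDs were found by symbol among the 54446 genes counted in primary smooth muscle cells from mouse aorta. All 36 passed the filter on low counts, among 15181 genes tested. Of the 10 libraries 5 were wild type (WT) and 5 carried the alleles W and Wv of Kit (Kit W/Wv, here WWv), which encodes the stem cell factor receptor c-Kit. The cells were released with collagenase and grown in culture to passage 2. The W/Wv alleles are germline mutations, carried by every cell of the animal and not only by smooth muscle, and the cells of both groups had been selected by growth in culture. The protocol speaks of 5 mice per genotype, and the library titles carry numbers but no mouse. The labels do not give age, sex or strain. If libraries share a mouse or a culture, the p-values below measure only the spread between libraries.

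A cell enters mitosis when the kinase Cdk1, bound to cyclin A or B, is switched on, and it leaves when the anaphase promoting complex marks cyclin B and securin for destruction. Transcripts of most genes of this kind rise in late S and G2 phase, when the factors B-MYB and FOXM1 act with the MuvB complex at their promoters, and the DREAM complex holds the same promoters down in resting cells. In the vessel wall, smooth muscle cells seldom divide, and culture brings them back into the cell cycle. In RNA from a whole culture, fewer cycling cells and less RNA per cycling cell cannot be told apart.

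The libraries held 42040255 to 53863661 counts, and the 36 genes had 250 to 11251 counts each per library. Kit stood at 3.19 to 4.92 CPM (counts scaled to a common library size) in WT and at 0.929 to 3.01 CPM in WWv (log2 fold change −1.04 ± 0.25 SE, adjusted p = 0.0122 by the quasi-likelihood test of edgeR). The smooth muscle markers rose in 5 of 8 members, among them Acta2 (1.68-fold), Tagln (1.66-fold) and Myh11 (2.05-fold), and summed to 10069 to 13269 CPM in WT and 16884 to 20375 CPM in WWv. Endothelial markers passed the threshold (an adjusted p under 0.05) in 0 of 7 and macrophage and leukocyte markers in 0 of the 5 tested of 8. Their sums ran from 56.5 to 329 and from 20.7 to 41.4 CPM in WT, and from 91.2 to 210.2 and from 20.7 to 25.7 CPM in WWv. Fibroblast markers fell in 4 of 7, among them the matrix genes Lum (−4.02 on the log2 scale), Dpt (−2.005) and Dcn (−1.76), and summed to 5847 to 12127 CPM in WT and 7223 to 9562 CPM in WWv. Without WT 2, 5 smooth muscle and 4 endothelial markers rose, and 2 macrophage and 5 fibroblast markers fell. Of all tested genes 12.8% rose and 15.4% fell with all libraries, and 22.7% rose and 23.5% fell without WT 2. No marker of the 4 lists was at 0 in all libraries. The part of these marker levels in the results below was not tested. The library WT 2 stood apart. On the first principal component (52.5% of the variance) it lay at 20.2, among the WWv libraries (11.5 to 33.4) and away from the other 4 WT libraries (−51.1 to −29.1). On the second (17.3%) it lay at −42.9, with the other libraries at −20.2 to 23.1. In Kit it measured 4.92 CPM, above every other library and so on the side of its label. Whether its label is right was not tested. Calls on the mitosis genes are therefore given with and without it. WT 2 was singled out after its values were seen. For a gene in which it is the highest WT library, leaving it out raises the estimate by construction. The calls and p-values without it are thus a description and not a separate test.

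In WWv, 6 of the 36 mitosis genes rose (16.7%, against 12.8% of all tested genes) and 1 fell (2.78%, against 15.4%). The 6 were Cdk1, the kinase of mitotic entry, Kif11, the motor that separates the spindle poles, Top2a, which untangles DNA, Ccna2, cyclin A2, Prc1, the bundler of the central spindle, and Incenp, the scaffold of the chromosomal passenger complex. The gene that fell was Cenpa, the histone that marks the centromere. The rises were of 1.24-fold to 1.37-fold. The estimates of 33 members were above 0 and those of 3 below, with a median log2 fold change of 0.23 beside −0.01 over all tested genes. The share that rose was thus near that of the whole table.

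The number of members that passed turned on WT 2. It had the highest level of the 10 libraries for 26 of the 36 members (72.2%, against 17.1% of tested genes), and the highest of the 5 WT libraries for 35, all but Cdc25c. Its level was 1.07 to 1.89 times the mean of the other 4 WT libraries, with a median of 1.47 beside 0.972 over all tested genes. Without WT 2, 29 members rose (80.6%, against 22.7% of tested genes) and 1 fell (2.78%, against 23.5%), the rises being of 0.18 to 0.57 on the log2 scale. These 29 held all 6 of the full comparison. Leaving out another library gave 2 rises for WT 1, for WT 4 and for each of WWv 2 to 5, 3 rises for WT 3 and for WT 5, and 9 for WWv 1. Cenpa no longer passed in 5 of the 10 fits with a library left out. With library size alone in place of TMM scaling, 2 members rose (Cdk1 and Incenp) and 1 fell, and the calls over all genes shifted from 1940 higher and 2334 lower to 983 and 3599. The TMM factors themselves differed between the groups, 1.01 to 1.06 in WT and 0.957 to 0.984 in WWv. The median of all genes moved from −0.01 to −0.09 on the log2 scale.

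No member separated the groups completely: in 0 of 36 did all WWv libraries lie above all WT libraries (8.03% of tested genes) and in 0 below (7.84%). With WT 2 set aside, all WWv libraries lay above the other 4 WT libraries in 23 members, where 17.5% of tested genes did so, and below them in 0, where 18.7% did. The remaining 13 overlapped. Within the groups the order of libraries was similar from gene to gene. WT 5 was the lowest WT library for 29 members and WWv 1 the lowest WWv library for 30. How often these libraries were the lowest over all tested genes was not counted. Together the 36 genes took 0.158, 0.231, 0.159, 0.151 and 0.139% of the counts in WT replicates 1 to 5, and 0.164, 0.193, 0.178, 0.190 and 0.193% in WWv replicates 1 to 5. WT 2 was thus the highest library, and the other 4 WT libraries were below all of WWv. WT 2 was also the highest of the 10 libraries in summed endothelial markers and the lowest in summed fibroblast markers and in mitochondrial reads (1.63%, the others 1.68 to 2.45%). Col1a1 made up 5478.5 of the 5847 CPM of fibroblast markers in WT 2. The part of these values was not tested.

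**Figure D1:**
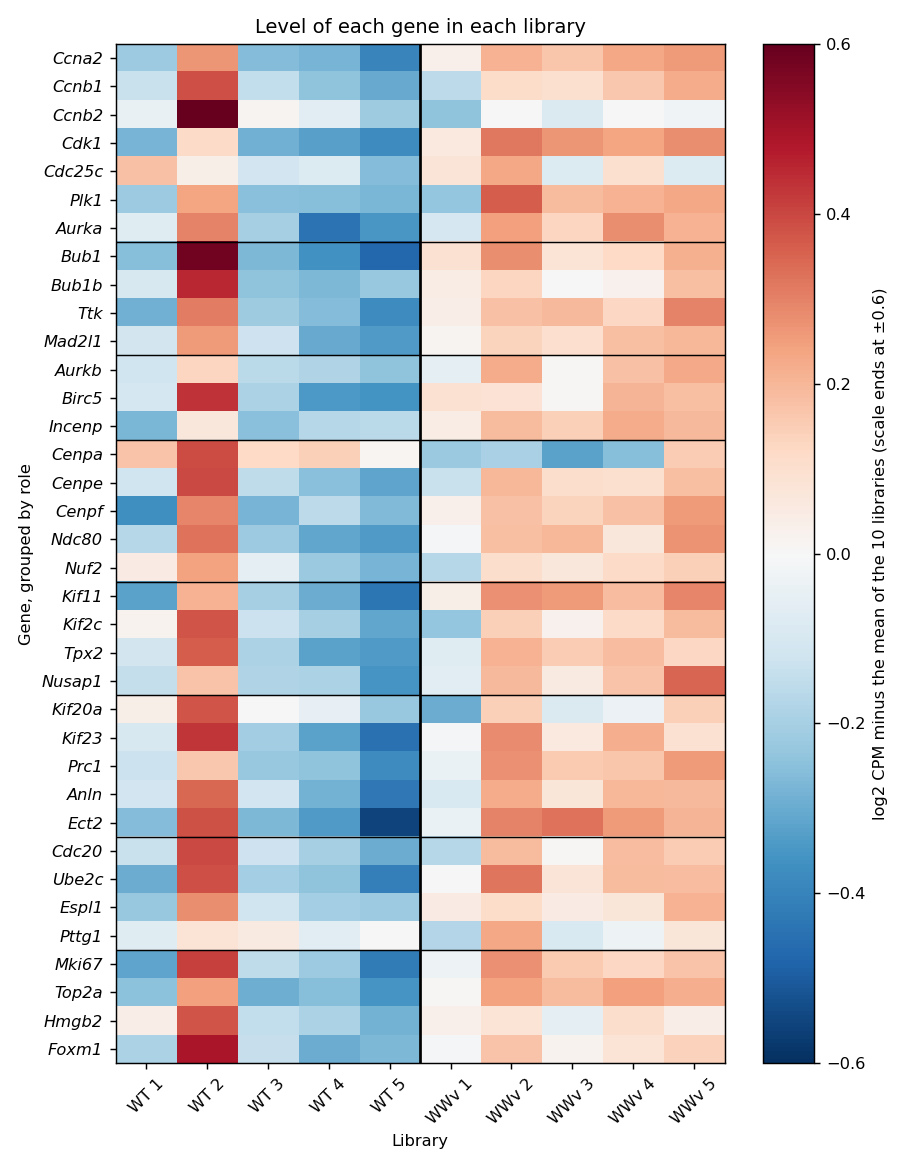
Heat map of the 36 genes (rows, grouped by role with lines between groups) in the 10 libraries (columns). Colour is log2 CPM minus the gene's mean over the 10 libraries. The column of WT 2 is red for nearly every gene, the other 4 WT columns are mostly blue, and Cenpa is the row in which WT is red and 4 of the 5 WWv libraries are blue.

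The promoters of these genes share short sequence elements that the choice of genes did not use. The cell cycle genes homology region (CHR, TTTGAA or TTCGAA) is bound by the LIN54 subunit of MuvB, and the CCAAT box by NF-Y. RefSeq promoters on GRCm38.p6, from 250 bases before to 50 after the start site, were at hand for 29 of the 36 members. On either strand a CHR stood in 22 of these 29 (75.9%), against 16.3% of 10942 tested genes and 21.7% of all 27025 genes with a promoter. A CCAAT box stood in 21 (72.4%, against 42.9% and 41.1%), and both elements in 19 (65.5%, against 6.89% and 8.61%). An E2F element (TTGGCGC or TTCCCGC) stood in 4 (13.8%, against 13.9% and 7.79%), those of Ccnb1, Cdk1, Ect2 and Mki67. The E2F letters TTGGCGC can share TTGG with a CCAAT box read on the other strand. The CHR nearest the start lay between positions −103 and 41, counted from the start site, with a median of 3. In the 19 promoters with a CCAAT box upstream of that CHR, the box began a median of 35 bases before it, with a range of 9 to 153. Within 50 bases of the start, a window chosen after seeing the data, 20 of the 29 promoters held a CHR. The shares there were 4.44% of tested genes and 6.12% of all genes. Of the 138 other mitosis genes 116 had a promoter, and 50.9% of these held a CHR and 26.7% an E2F element. Of 31 promoters of DNA replication genes 25.8% held a CHR and 54.8% an E2F element. The members with no CHR in the window were Birc5, Ccnb1, Cenpe, Mad2l1, Nuf2, Nusap1 and Pttg1. A match is a description of the letters and not of binding.

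The stretches below, from 120 bases before the start to 30 from it on, belong to the 4 genes that rose and have a promoter in the table, to Ccnb2, whose level did not pass in either comparison, and to Cenpa, which fell. Each of the 6 holds a CHR and a CCAAT box. Of the other members that passed in neither comparison, Kif2c held a CHR and no CCAAT box in its window. Nuf2 and Pttg1 held neither, and Cdc25c and Kif20a had no promoter at hand. Birc5, Mad2l1 and Nusap1, which rose without WT 2, held neither as well. Whether the elements go with the change in level was not tested. Capitals mark matches, which read TTCAAA and ATTGG where the element lies on the other strand. Of the listed starts of Prc1 the upstream one is shown.
Cdk1 (chr10:69352883-69353032, minus strand): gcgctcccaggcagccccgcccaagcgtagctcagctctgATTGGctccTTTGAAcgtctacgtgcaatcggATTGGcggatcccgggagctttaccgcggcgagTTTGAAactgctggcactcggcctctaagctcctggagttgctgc
Kif11 (chr19:37376262-37376411, plus strand): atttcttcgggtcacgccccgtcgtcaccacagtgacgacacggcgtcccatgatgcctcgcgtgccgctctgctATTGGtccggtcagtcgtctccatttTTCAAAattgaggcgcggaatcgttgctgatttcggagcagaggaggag
Prc1 (chr7:80294331-80294480, plus strand): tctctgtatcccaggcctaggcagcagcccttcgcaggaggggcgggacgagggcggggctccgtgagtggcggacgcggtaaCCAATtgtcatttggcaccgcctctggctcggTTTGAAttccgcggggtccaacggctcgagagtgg
Top2a (chr11:99024160-99024309, minus strand): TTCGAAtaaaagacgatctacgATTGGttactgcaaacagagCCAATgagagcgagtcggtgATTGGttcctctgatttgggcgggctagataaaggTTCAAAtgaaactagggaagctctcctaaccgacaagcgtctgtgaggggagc
Ccnb2 (chr9:70421525-70421674, minus strand): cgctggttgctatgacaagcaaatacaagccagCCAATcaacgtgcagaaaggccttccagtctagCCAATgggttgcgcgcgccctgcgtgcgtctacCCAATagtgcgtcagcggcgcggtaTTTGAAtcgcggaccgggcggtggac
Cenpa (chr5:30666766-30666915, plus strand): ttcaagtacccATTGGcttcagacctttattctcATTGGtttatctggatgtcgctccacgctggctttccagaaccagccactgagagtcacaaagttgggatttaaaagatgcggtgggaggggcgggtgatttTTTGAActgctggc

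**Figure D2:**
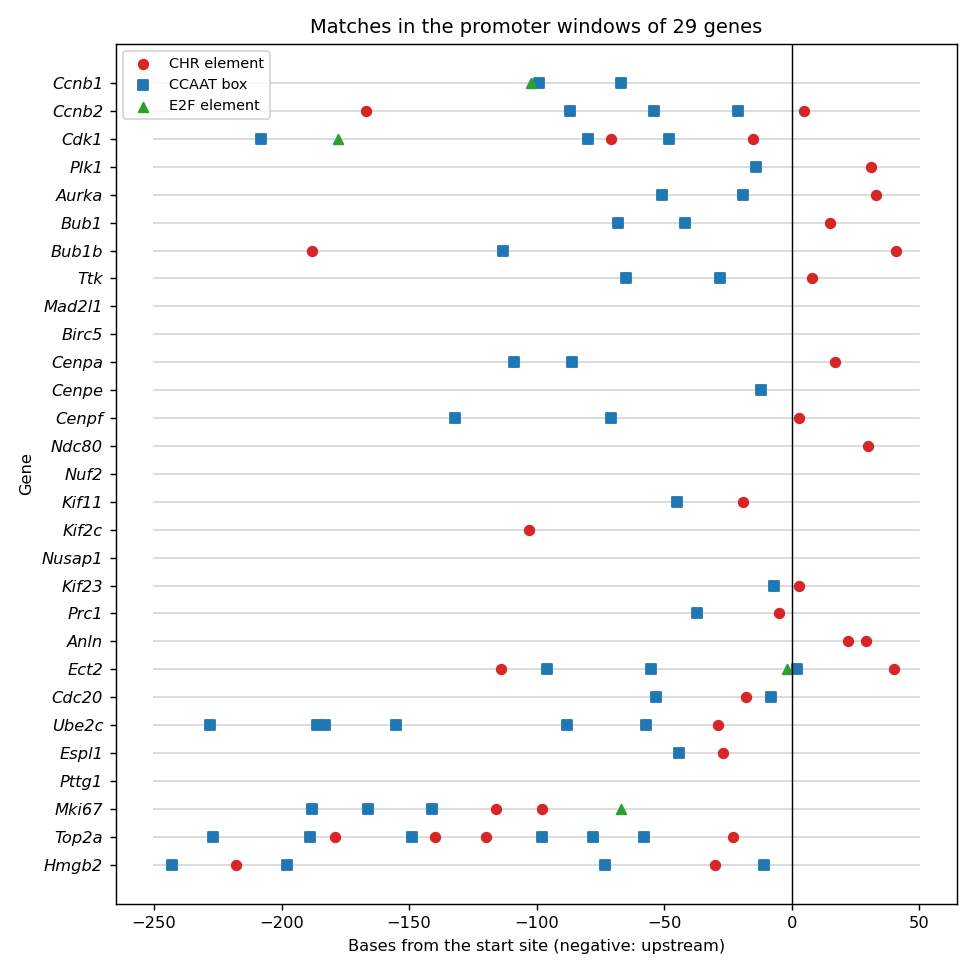
Positions of CHR elements (red circles), CCAAT boxes (blue squares) and E2F elements (green triangles) in the promoter windows of the 29 members with a RefSeq promoter, in bases from the start site. The CHR nearest to the start site gathers around it, at a median of position 3, and most CCAAT boxes lie upstream of it.

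Among the 7 genes of mitotic entry, 2 rose, Cdk1 and Ccna2. Cdk1 (ENSMUSG00000019942.13, chromosome 10, 69335146 to 69352938 in mm10, as for all positions below) measured, in the order of replicates 1 to 5 that is kept below, 41.8, 54.9, 41.6, 40.5 and 39.1 CPM in WT and 52.9, 63.1, 61.0, 59.9 and 61.7 CPM in WWv. Only WT 2 lay within the WWv range. The level rose from 43.6 ± 6.42 to 59.7 ± 3.99 CPM (SD, n = 5 each; 1.37-fold, log2 fold change 0.45 ± 0.09, adjusted p = 0.00543), and by 0.55 ± 0.05 without WT 2. The call of Cdk1 was kept in all 19 other fits, with adjusted p between 2.85e-05 and 0.0206. Ccna2, which partners Cdk1 and Cdk2 (ENSMUSG00000027715.9, chromosome 3, 36564865 to 36572150), stood at 46.7, 65.2, 45.3, 44.7 and 41.2 CPM in WT and at 55.5, 62.7, 61.0, 63.9 and 64.9 CPM in WWv. WT 2 was the highest library of all. The rise of 1.27-fold (0.34 ± 0.11, adjusted p = 0.041) missed the threshold in 8 of the 10 fits with a library left out, those without WT 2 and without WWv 1 being the exceptions (0.29 to 0.34, adjusted p = 0.085 to 0.106), and was 0.47 ± 0.06 without WT 2. Of all 19 other fits, Ccna2 passed in 7. The reads of Ccna2 are uncertain where Exosc9 covers 510 of its 4083 exon bases on the other strand.

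The B cyclins, which give Cdk1 its mitotic activity, did not pass. Ccnb1 (chromosome 13, 100778650 to 100786570) stood at 23.9, 34.3, 23.7, 22.2 and 21.2 CPM in WT and at 23.5, 28.3, 28, 29.3 and 30.6 CPM in WWv (0.16 ± 0.13, adjusted p = 0.366). WWv 1 lay among the WT libraries, and without WT 2 the gene rose by 0.30 ± 0.07 (adjusted p = 0.00727). Ccnb2 (chromosome 9, 70407692 to 70421547) stood at 17.9, 29.3, 18.7, 17.6 and 15.9 CPM in WT and at 15.6, 18.4, 17.4, 18.5 and 18.2 CPM in WWv (−0.17 ± 0.15, adjusted p = 0.398). Without WT 2 its estimate was 0.01 ± 0.07 (adjusted p = 0.908), so that the groups lay on each other apart from that library. Plk1, the polo kinase of spindle assembly, had 0.30 ± 0.12 (adjusted p = 0.0891), and Aurka, the kinase of the spindle poles, 0.29 ± 0.13 (adjusted p = 0.123). Both rose without WT 2, by 0.42 ± 0.10 and 0.42 ± 0.09, and Plk1 also without WWv 1 (0.39, adjusted p = 0.0284). Cdc25c, a phosphatase that activates Cdk1, had the lowest level of the members, at 5.88 to 7.97 CPM in WT and 6.66 to 8.29 CPM in WWv, and was not called in either fit (0.10 ± 0.10, and 0.12 ± 0.10 without WT 2).

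**Figure D3:**
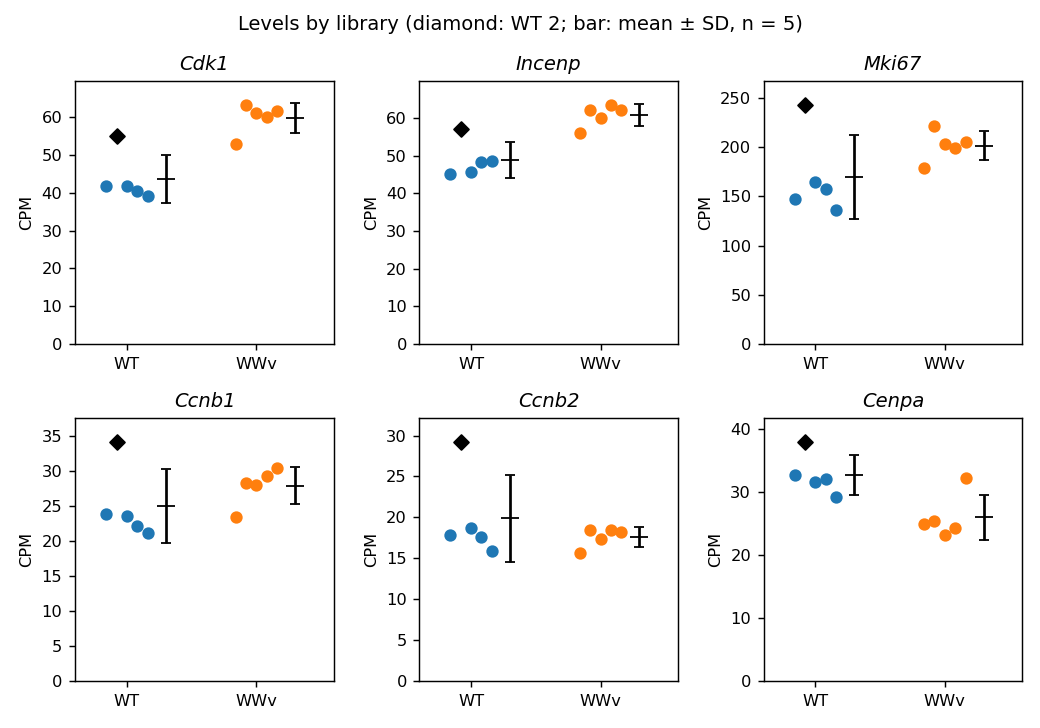
Levels in CPM of 6 members in each library (circles WT or WWv, black diamond WT 2), with the mean ± SD of 5 libraries beside each group. In Cdk1 and Incenp WT 2 is the WT library that reaches the WWv range, in Mki67, Ccnb1 and Ccnb2 it lies above all other libraries, and in Cenpa 4 of the 5 WWv libraries lie below all WT libraries.

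Of the 4 spindle checkpoint genes, which delay anaphase until all chromosomes are attached, 0 passed with all libraries and all 4 rose without WT 2. Bub1, the checkpoint kinase at the kinetochore (ENSMUSG00000027379.13, chromosome 2, 127801122 to 127831865), stood at 18.2, 32.5, 18.02, 16.9 and 15.7 CPM in WT and at 23.1, 26.3, 23.0, 23.6 and 25.1 CPM in WWv. Its level in WT 2 was 1.89 times the mean of the other WT libraries, the largest such ratio of the 36 genes. The log2 fold change was 0.26 ± 0.18 (adjusted p = 0.289), and 0.50 ± 0.06 without WT 2 (adjusted p = 0.000153). Ttk, the kinase MPS1 that starts the signal, had 0.31 ± 0.12 (0.45 ± 0.07 without WT 2), Mad2l1, the inhibitor of Cdc20, 0.23 ± 0.10 (0.34 ± 0.06) and Bub1b, BUBR1, 0.12 ± 0.13 (0.29 ± 0.06).

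The chromosomal passenger complex corrects faulty attachments and later directs cytokinesis. Incenp (ENSMUSG00000024660.8, chromosome 19, 9872296 to 9899551) stood at 44.99, 56.9, 45.6, 48.3 and 48.6 CPM in WT and at 56.0, 62.0, 59.9, 63.4 and 62.1 CPM in WWv. WT 2 and WWv 1 lay side by side and the other libraries were apart. It rose from 48.9 ± 4.78 to 60.7 ± 2.90 CPM (n = 5 each; 1.24-fold, 0.31 ± 0.07, adjusted p = 0.0072), and by 0.38 ± 0.05 without WT 2. Like that of Cdk1, this call was kept in all 19 other fits (adjusted p = 7.14e-05 to 0.0417). Its partners did not pass with all libraries: Aurkb, the kinase of the complex, had 0.23 ± 0.08 (adjusted p = 0.0613) and Birc5, survivin, 0.20 ± 0.14 (adjusted p = 0.292). Without WT 2 they rose by 0.30 ± 0.07 and 0.36 ± 0.07, and Aurkb passed without WWv 1 as well (0.27, adjusted p = 0.0435).

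Cenpa (ENSMUSG00000029177.9, chromosome 5, 30666777 to 30674830) stood at 32.7, 37.99, 31.5, 32.0 and 29.2 CPM in WT and at 24.8, 25.4, 23.2, 24.3 and 32.3 CPM in WWv. Of WWv, only WWv 5 lay in the WT range. The level fell from 32.7 ± 3.24 to 26 ± 3.59 CPM (n = 5 each; log2 fold change −0.33 ± 0.10, adjusted p = 0.0273), and by 0.27 on the log2 scale without WT 2 (adjusted p = 0.0288). In 5 of the fits with a library left out, those lacking WT 1 or one of WWv 1 to 4, it missed the threshold (−0.33 to −0.29, adjusted p = 0.0546 to 0.0758). Of all 19 other fits, Cenpa passed in 13. The other 4 genes of the centromere and kinetochore had positive estimates: Cenpf, a large protein of the outer kinetochore, 0.29 ± 0.11, Ndc80, the microtubule binder, 0.27 ± 0.12, Cenpe, a kinetochore motor, 0.16 ± 0.13, and Nuf2, the partner of Ndc80, 0.10 ± 0.10. None of these 4 passed with all libraries. Without WT 2 Cenpf (0.42 ± 0.06), Ndc80 (0.41 ± 0.07) and Cenpe (0.30 ± 0.07) rose and Nuf2 did not pass (0.18 ± 0.08, adjusted p = 0.0964).

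Of the 4 spindle motors and microtubule proteins, Kif11 rose. Kif11 (ENSMUSG00000012443.3, chromosome 19, 37376403 to 37421859) stood at 28.2, 40.7, 30.6, 28.6 and 26.1 CPM in WT and at 36.03, 42.5, 41.9, 39.9 and 43.1 CPM in WWv. WT 2 lay inside the WWv range and the other WT libraries below it. The change was 1.32-fold (0.40 ± 0.11, adjusted p = 0.0209) and 0.52 ± 0.06 without WT 2. In 6 of the fits with a library left out it missed the threshold, those lacking WT 1, WT 4 or one of WWv 2 to 5 (0.37 to 0.40, adjusted p = 0.0509 to 0.0583). Of all 19 other fits, Kif11 passed in 12. Nusap1, which stabilises microtubules at chromosomes, had 0.27 ± 0.10 (adjusted p = 0.0648), and Tpx2, the activator of Aurka, 0.22 ± 0.12 (adjusted p = 0.208). Without WT 2 both rose by 0.36 (SE 0.08 and 0.07), and Nusap1 passed without WWv 1 (0.32, adjusted p = 0.0461). Oip5 overlaps 172 of the 4059 exon bases of Nusap1. Kif2c, a microtubule depolymerase, did not pass with all libraries (0.08 ± 0.13) or without WT 2 (0.21 ± 0.09, adjusted p = 0.0814), and its sign turned with library size alone (−0.0048).

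In the group of the central spindle and cytokinesis, Prc1 rose. Prc1 (ENSMUSG00000038943.16, chromosome 7, 80294450 to 80316259) stood at 91.8, 112, 85.9, 84.9 and 77.4 CPM in WT and at 97.8, 121, 112, 113 and 119.9 CPM in WWv. WT 2 lay among the WWv libraries, and WWv 1 was the lowest of WWv, above the other 4 WT libraries. The change was 1.25-fold (0.32 ± 0.10, adjusted p = 0.0306) and 0.41 ± 0.07 without WT 2. It missed the threshold in 8 of the 10 fits with a library left out, those without WT 2 and without WWv 1 being the exceptions (0.27 to 0.32, adjusted p = 0.0578 to 0.0853), and Rccd1 overlaps 911 of its 8225 exon bases. Of all 19 other fits, Prc1 passed in 10. Ect2, the exchange factor that turns on RhoA at the equator, stood at 22.2, 34.7, 22.1, 21.1 and 18.2 CPM in WT and at 25.95, 32.8, 33.4, 31.8 and 30.7 CPM in WWv. It had a larger estimate than Prc1 with a wider error (0.39 ± 0.15, adjusted p = 0.0797), and its 0.57 ± 0.08 without WT 2 (adjusted p = 0.000379) was the largest of the 36 genes in that fit. Kif23, MKLP1 of the central spindle, had 0.23 ± 0.14 and Anln, the actin binder anillin, 0.22 ± 0.13, and without WT 2 they rose by 0.40 ± 0.08 and 0.36 ± 0.08. Kif20a, MKLP2, which brings the passenger complex to the midzone, stood at 81.6 to 124 CPM in WT and 77.8 to 106 CPM in WWv. It had −0.06 ± 0.11 with all libraries and 0.04 ± 0.09 without WT 2 (adjusted p = 0.724), and Cdc23 overlaps 1271 of its 4338 exon bases.

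None of the 4 genes of the anaphase promoting complex and separase passed with all libraries. Ube2c, the ubiquitin conjugating enzyme of the complex, had 0.28 ± 0.14 (adjusted p = 0.141), Espl1, separase, 0.18 ± 0.09 (adjusted p = 0.172), and Cdc20, the activator of the complex, 0.13 ± 0.13 (adjusted p = 0.461). Without WT 2 they rose by 0.45 ± 0.07, 0.29 ± 0.05 and 0.27 ± 0.08. Cdc20 had the highest level per kilobase of the 36 genes, 30.5 CPM per kilobase of exon in WT and 33.4 in WWv, and Cdc25c the lowest (1.39 and 1.49). Pttg1, securin, which holds separase back, stood at 11.9, 13.2, 13.0, 11.9 and 12.5 CPM in WT and at 11.1, 14.7, 11.7, 12.2 and 13.1 CPM in WWv. The groups overlapped throughout, WT 2 stood out little (1.07 times the other WT libraries), and the estimates were 0.01 ± 0.08 and, without WT 2, 0.03 ± 0.08 (adjusted p = 0.774). Its sign turned with library size alone (−0.08).

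Among the genes of chromatin and transcription, Top2a rose. Top2a (ENSMUSG00000020914.17, chromosome 11, 98992943 to 99024189) stood at 116, 163, 112, 115 and 108 CPM in WT and at 139, 163, 157, 163 and 160.3 CPM in WWv. WT 2 was level with the highest WWv libraries. The change was 1.27-fold (0.35 ± 0.11, adjusted p = 0.0339) and 0.47 ± 0.05 without WT 2. It missed the threshold in 8 of the 10 fits with a library left out, those without WT 2 and without WWv 1 being the exceptions (0.30 to 0.34, adjusted p = 0.0756 to 0.0937). Of all 19 other fits, Top2a passed in 10. Mki67, which coats mitotic chromosomes and is the usual marker of cycling cells, stood at 147, 243, 164, 157 and 136 CPM in WT and at 179, 221, 203, 199 and 205 CPM in WWv. WT 2 was above all libraries, and the other 4 WT libraries were below all of WWv. The difference was 0.25 ± 0.14 (adjusted p = 0.198), and Mki67 rose by 0.42 ± 0.07 without WT 2 (adjusted p = 0.000781). Foxm1, the transcription factor of G2 genes, stood at 51.7, 82.8, 53.6, 48.1 and 48.9 CPM in WT and at 58.6, 66.5, 59.9, 62.4 and 65.0 CPM in WWv. WT 2 was again above all libraries. It had 0.13 ± 0.14 (adjusted p = 0.491) and rose by 0.31 ± 0.05 without WT 2 (adjusted p = 0.000826). Hmgb2, a chromatin protein of dividing cells, had 0.06 ± 0.11, turning to −0.02 with library size alone, and rose by 0.18 ± 0.07 without WT 2 (adjusted p = 0.0389).

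**Figure D4:**
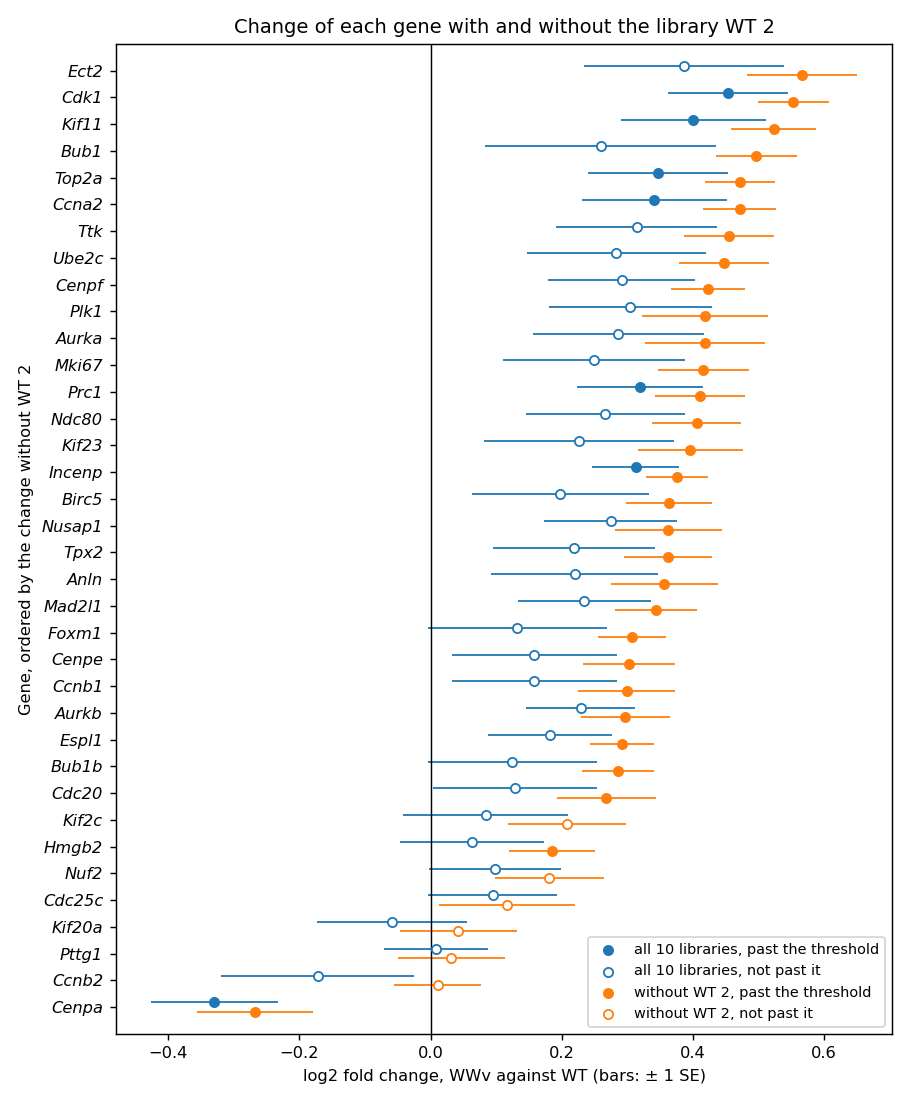
Log2 fold change of WWv against WT (± 1 SE) for each of the 36 genes with all 10 libraries (blue) and without WT 2 (orange). Filled points are past an adjusted p of 0.05. Filled blue points number 7 and filled orange points 30, Cenpa is the filled point below 0 in both, and Cdc25c, Nuf2, Kif2c, Kif20a, Pttg1 and Ccnb2 are open in both.

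Reads of 10 of the 36 members can be uncertain through overlapping exons. In 5 (Ccna2, Nusap1, Kif20a, Prc1 and Cdc20) the overlapping gene, on the opposite strand, had over 1000 counts over the 10 libraries, and in the other 5 at most 23. Ccnb1, Hmgb2, Mad2l1 and Mki67 have near-identical copies elsewhere in the annotation, 11 in all, each with at most 16 counts over the 10 libraries.

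There were 6 members that did not pass in either fit, Cdc25c, Nuf2, Kif2c, Kif20a, Pttg1 and Ccnb2. They had estimates of 0.01 to 0.21 without WT 2. Their errors in that fit were 0.07 to 0.10. Nuf2 and Kif2c, with the largest of these estimates, missed the adjusted threshold, which does not show that they did not differ. Spread between libraries of 1 group was also uneven. The coefficient of variation of the members had a median of 19.7% in WT (12.9% over all tested genes), 6.27% in WT without WT 2 (8.58%) and 7.94% in WWv (8.70%).

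A further 138 mitosis genes and their regulators were read the same way, from lists by complex. Their counts stand beside 12.8% higher and 15.4% lower among all tested genes, and 22.7% and 23.5% without WT 2. Among 35 other kinetochore and centromere genes 11 rose and 1 fell with all libraries, and 22 rose and 1 fell without WT 2. The scaffold gene Knl1 rose by 0.47 ± 0.12 (adjusted p = 0.015), Cenpu by 0.46 ± 0.13 and Spc25, of the Ndc80 complex, by 0.38 ± 0.08, with every WWv library of Spc25 above every WT library. The 1 that fell was Cenpt, which links the centromere to the outer kinetochore (−0.27 ± 0.08, adjusted p = 0.0284). Of 11 other checkpoint and cohesion protection genes 3 rose (Sgo2a 0.40, Sgo1 0.31 and Bub3 0.19), and 10 without WT 2. Of 22 other kinesins and spindle genes 4 rose, among them Haus6 of the augmin complex (0.43), Kif18a (0.39) and Kif18b (0.35), and 14 rose and 1 fell without WT 2. Of 11 other cytokinesis genes 3 rose (Kif20b 0.43, Pbk 0.40 and Arhgap11a 0.28), and 9 without WT 2. Of 15 genes of condensin and cohesin, subunits and cohesin regulators, 4 rose, and 12 without WT 2. The condensin II subunit genes Ncapg2 (0.46 ± 0.10) and Ncapd3 (0.38 ± 0.05, adjusted p = 0.000548) and Ncaph of condensin I (0.31 ± 0.10) were among the 4. The cohesin subunit genes of the list passed only without WT 2. WWv lay wholly above WT in Ncapd3. Exons of Primpol cover 1069 of the 3999 exon bases of Cenpu and those of Kctd18 2455 of the 7007 of Sgo2a, on the other strand, and these 2 values are uncertain. With library size alone, 13 of the 138 genes rose and 11 fell, against 38 and 3.

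Of the 17 subunits and regulators of the anaphase promoting complex 2 rose and 2 fell, where 12.8% of all tested genes rose, and the median was 0.03. Without WT 2, 5 rose and 3 fell, and with library size alone 1 rose and 5 fell. Fbxo5, the inhibitor EMI1 of the complex, rose by 0.65 ± 0.15 (adjusted p = 0.0095), and the subunit genes Anapc5 (−0.27 ± 0.04, adjusted p = 0.00205) and Cdc26 (−0.26 ± 0.07) fell, without overlap of the groups. Among 15 other regulators of entry and exit 6 rose and 0 fell, and 9 rose and 0 fell without WT 2. Wee1, the kinase that holds Cdk1 inactive, rose by 0.62 ± 0.08 (adjusted p = 0.000676), with no overlap of the groups, and Ccnf (0.36) and Cks2 (0.30) rose too. Of 12 DREAM, B-MYB and E2F regulators 5 rose and 0 fell, and 8 rose and 0 fell without WT 2. Of the 5, the repressor gene E2f8 rose by 0.64 ± 0.12 and the MuvB subunit gene Lin9 by 0.55 ± 0.12, both without overlap, and Rbl1, p107, by 0.50 ± 0.11.

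The 38 genes of DNA replication and the start of S phase stood beside the mitosis genes as a comparison. Of them 21 rose (55.3%, against 12.8% of tested genes) and 0 fell, with a median of 0.44. Without WT 2, 37 rose (97.4%, against 22.7%), with a median of 0.59 beside 0.36 for the mitosis genes. With library size alone 12 rose. The cyclin E genes Ccne2 (0.93 ± 0.09) and Ccne1 (0.85 ± 0.10) and Cdc6, the helicase loader (0.79 ± 0.13), had larger estimates than any of the 36 mitosis genes, a difference that was not tested, and did not overlap between the groups. Exons of Ints8 cover 609 of the 3495 exon bases of Ccne2 on the other strand, and its value is uncertain. The summed CPM of the replication genes was 995, 1519, 1019, 893 and 915 in WT and 1410, 1523, 1463, 1487 and 1430 in WWv. WT 2 was within the WWv range there and above it in the sum of the mitosis genes (2177 CPM, against 1671 to 2014 in WWv). The ratio of the summed mitosis genes to the summed replication genes, which does not depend on the scaling of the library, was 1.56, 1.43, 1.51, 1.65 and 1.51 in WT and 1.19, 1.32, 1.27, 1.30 and 1.39 in WWv. The groups did not overlap, all of WWv being lower, and WT 2 was on the side of WT. This ratio was chosen after the values were seen and is given with no test.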

How the data were processed

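RNA of 10 libraries of cultured mouse aortic smooth muscle cells, 5 WT and 5 WWv, was sequenced after poly(A) library preparation, per the labels' protocols. The authors deposited 1 table of read counts per gene for all libraries, not normalized. Per the submitters' processing notes, bcl2fastq 2.17, Trim Galore 0.4.3, STAR 2.5.2a and the mm10 genome were used. For the counting program, its strand setting and its annotation: not given in the sources used here. Without strand, reads of overlapping genes cannot be told apart.

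Symbols and positions came from GENCODE M21 on GRCm38, the assembly of mm10, which held 54409 of 54446 IDs. The other 37 held 0.0026% of counts. Counts were tested with edgeR 4.0.16 in R 4.3.3 (TMM scaling, filterByExpr with a minimum count of 10, glmQLFit and glmQLFTest with group as the only term), and p-values were adjusted by Benjamini and Hochberg over all 15181 tested genes, with 0.05 as the threshold. CPM values use TMM library sizes. Per kilobase levels divide by the union of annotated exon bases. SD is over libraries and SE is that of the fitted log2 fold change. The common biological coefficient of variation was 0.161. Alternatives were other scalings and filters, DESeq2 1.42.0, voom of limma 3.58.1 with and without quality weights, each library left out in turn, and a block for the replicate number. The method was tested on simulated data drawn from the WT means, with 200 genes changed and no library set apart like WT 2. It recovered 70.1% of changes of 1.5-fold and 94.0% of those of 2-fold, and 8 of its 183 calls were false. Smaller changes were not simulated. Near-identical copies were transcripts at 95% identity or more over at least 200 bases.

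The members and all lists were chosen with earlier results of these data known. Values in every library are printed for the members that passed and for those that show a pattern of the libraries. Of each other list the text names up to 3 genes past the threshold with the largest change, and those past it in the minority direction where these were 3 or fewer. Promoter sequences are from RefSeq. Promoters of 7 members, Ccna2, Incenp, Cdc25c, Kif20a, Foxm1, Aurkb and Tpx2, were not used here.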

Additional observations from a re-analysis of the deposited data

Results flagged for a closer look

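In 23 of 72 groups of 5 libraries (36 members in WT and in WWv), the highest or lowest library lay far from the others: its gap to the nearest library was over 0.71 of the range of the group. Chance flags about 1 in 20 groups, and the groups here share their libraries. The share flagged over all tested genes was not counted, so whether the flags are particular to these genes was not tested. In 20 of the 23 the library was WT 2, as the highest of WT. In mitotic entry these were Ccna2 at 65.2 CPM, Ccnb1 at 34.3, Ccnb2 at 29.3, Cdk1 at 54.9 and Plk1 at 52.8 CPM. In the checkpoint and passenger complex they were Bub1 at 32.5 CPM, Bub1b at 39.3, Ttk at 12.2 and Birc5 at 35.7 CPM. At the kinetochore and spindle they were Cenpe at 75.2 CPM, Cenpf at 53.0, Ndc80 at 19.7 and Tpx2 at 126 CPM. In cytokinesis and anaphase they were Ect2 at 34.7 CPM, Cdc20 at 77.7, Ube2c at 66.0 and Espl1 at 30.1 CPM. In chromatin and transcription they were Mki67 at 243 CPM, Top2a at 163 and Foxm1 at 82.8 CPM. The other 3 were in WWv: Cenpa was high in WWv 5 at 32.3 CPM, and Nuf2 at 22.6 CPM and Top2a at 139 CPM were low in WWv 1.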

How the results depend on the processing

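Of 684 member values under 19 alternatives, 574 kept their direction and side of the threshold, 43 lost the call, 54 gained it and 13 turned sign. Cdk1 and Incenp kept their rise in all 19. Leaving out 1 library gave 2 to 29 members higher and 0 to 1 lower, 16 to 89 of the 138 other mitosis genes higher and 1 to 5 lower, and 1286 to 3507 of all genes higher and 1721 to 3620 lower. The upper ends for higher genes came without WT 2. With library size alone 2 members were higher, other mitosis genes split 13 higher and 11 lower (38 and 3 with TMM), and all genes 983 and 3599. With quality weights 28 members, 90 other mitosis genes and 3595 genes were higher, and 8 other mitosis genes and 3806 genes lower. Without a filter 25 other mitosis genes were higher, and with upper quartile scaling, a filter of 1 CPM or DESeq2 5 were lower. In all of these the cause was not tested. No clear pairing by number showed between WT and WWv libraries: correlations of same-numbered libraries were −0.0920 to 0.308, with 1 of 5 over 0.1. Those of unlike number ran from −0.539 to 0.469, so these values cannot exclude a pairing. With the replicate number as a block, 10 members were higher and 0 lower. Signs turned for Pttg1 (−0.0125 with upper quartile, −0.0779 with library size alone, −0.0151 with 1 CPM, and −0.0553 to 0.0497 with a library left out), for Kif2c (−0.0048) and Hmgb2 (−0.0246) with library size alone, for Kif20a (0.0420 with quality weights, −0.12 to 0.0423 with a library left out) and for Ccnb2 (−0.24 to 0.0106 with a library left out). A window of 50 bases either side of the start was chosen after seeing the data. In it 48.3% of member promoters held a CCAAT box, 3.45% an E2F element and 44.8% both CHR and CCAAT. Among tested genes the shares in this window were 16.9%, 5.35% and 1.097%.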
